A study of Homo sapiens with 8 samples.

Results

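The H3K27ac signal was followed at 10 genes of the Hippo pathway, out of 20007 protein-coding genes of the GENCODE annotation, in pancreatic progenitors (PPs) treated with DMSO or I-BET151. They were the coactivators YAP1 and WWTR1 (which encodes TAZ), the DNA-binding factors TEAD1, TEAD2, TEAD3 and TEAD4, the target genes CCN1 and CCN2 (formerly CYR61 and CTGF), and the negative regulators AMOTL2 and LATS2. The genes were taken by name, and every called peak in a gene body or within 50 kb either side of it was used, in each library separately. These windows held 22 and 23 peaks in the DMSO libraries and 21 in each I-BET151 library, and they merged into 24 of the 15752 regions of the series.

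Hippo signalling is a kinase cascade in which LATS kinases phosphorylate YAP and TAZ and keep them out of the nucleus. In the nucleus, YAP and TAZ have no DNA-binding domain of their own and reach promoters and enhancers through TEAD factors, often beside AP-1. In the pancreas, TEAD and YAP bind enhancers of progenitor genes, and YAP is lost from cells as they become endocrine. H3K27ac, acetylation of lysine 27 of histone H3, marks active promoters and enhancers. BET proteins bind acetylated lysines through their bromodomains, and I-BET151 blocks that binding.

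The PPs were differentiated from the human embryonic stem cell line MEL1, which carries GFP in 1 INS allele (INS GFP/W), and all were kept in EF6, a DMEM-based medium with B27, the TGFβ receptor inhibitor 616452 at 10 μM, and the growth factors EGF (at 50 ng/ml) and bFGF (at 10 ng/ml). One group received DMSO as solvent and the other 1 μM I-BET151 for 7 days, with 2 H3K27ac libraries and 2 input libraries in each. All cells came from 1 stem cell line, and no label tied the replicates to separate cultures, so the spread between them may be technical. The input libraries had no peak list of their own here. The PP markers PDX1, NKX6-1, SOX9, FOXA2, GATA4, GATA6 and ONECUT1 each had a summit within 3 kb of a start in all 4 libraries, and PTF1A had none. No summit lay near any of the 5 endocrine, 2 pluripotent and 2 hepatic markers, and of 3 mesenchymal markers PDGFRB had one in every library. Peak numbers were 13606 and 14248 in DMSO and 12887 and 12312 in I-BET151, from 7.76 to 9.84 M ChIP reads and 2.67 to 3.04 M input reads per library, as worked out from the peak lists. The total length under peaks was 9.91 and 9.87 Mb in DMSO and 9.19 and 8.62 Mb in I-BET151. Loss of the mark in some cells and a weaker mark in every cell cannot be told apart in such bulk libraries.

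To show the DNA behind the results, stretches were read in front of 3 genes that hold the letters of a TEAD site and at both regions called only in DMSO. Capitals mark GGAATG or its reverse CATTCC, the core of a TEAD site, and, at TEAD3, TGANTCA, the AP-1 site. The first 3 end at the base before the RefSeq start (GRCh38.p14) and read 5′ to 3′ in the direction of the gene. The other 2 are centred on the summit in hg38.
YAP1 before the start, chr11:102110197-102110446, plus strand: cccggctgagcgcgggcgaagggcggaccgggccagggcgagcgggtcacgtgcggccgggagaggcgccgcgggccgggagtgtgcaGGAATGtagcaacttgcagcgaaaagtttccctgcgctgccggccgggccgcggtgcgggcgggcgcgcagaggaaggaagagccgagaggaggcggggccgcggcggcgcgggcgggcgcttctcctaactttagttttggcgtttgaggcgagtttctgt
CCN2 before the start, chr6:131951373-131951622, minus strand: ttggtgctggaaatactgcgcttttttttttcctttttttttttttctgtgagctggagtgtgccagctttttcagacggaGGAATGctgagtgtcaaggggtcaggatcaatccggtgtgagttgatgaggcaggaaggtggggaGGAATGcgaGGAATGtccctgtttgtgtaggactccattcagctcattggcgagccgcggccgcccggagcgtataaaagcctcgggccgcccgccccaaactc
AMOTL2 before the start, chr3:134374448-134374697, minus strand: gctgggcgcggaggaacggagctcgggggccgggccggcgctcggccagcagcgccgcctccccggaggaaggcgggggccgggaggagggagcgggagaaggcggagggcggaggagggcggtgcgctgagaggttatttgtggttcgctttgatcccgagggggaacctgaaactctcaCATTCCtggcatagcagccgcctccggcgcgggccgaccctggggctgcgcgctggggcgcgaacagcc
TEAD3 intron, called only in DMSO, chr6:35486004-35486303, plus strand: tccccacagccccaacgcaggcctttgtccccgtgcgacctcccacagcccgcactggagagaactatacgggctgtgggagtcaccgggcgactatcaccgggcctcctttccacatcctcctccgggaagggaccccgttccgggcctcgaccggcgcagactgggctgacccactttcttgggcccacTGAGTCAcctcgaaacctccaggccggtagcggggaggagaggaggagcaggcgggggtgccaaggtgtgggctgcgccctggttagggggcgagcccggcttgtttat
AMOTL2 distal region, called only in DMSO, chr3:134313492-134313791, plus strand: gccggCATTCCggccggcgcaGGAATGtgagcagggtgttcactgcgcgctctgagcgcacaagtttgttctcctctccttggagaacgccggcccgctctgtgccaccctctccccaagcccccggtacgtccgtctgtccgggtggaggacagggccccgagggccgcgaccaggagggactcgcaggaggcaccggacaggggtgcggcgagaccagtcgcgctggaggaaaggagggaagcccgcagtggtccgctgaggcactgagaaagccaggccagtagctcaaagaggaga
The CCN2 stretch held GGAATG 3 times, beginning 169, 104 and 95 bp before the start. That at YAP1 held it once, 162 bp before the start, and that at AMOTL2 held the reverse once, 69 bp before it. LATS2 held GGAATG 9 bp after its start.

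Of the 35116 RefSeq promoters, which run from 250 bases before a start to 50 after it, 14.0% held GGAATG on either strand. The 7 members with entries (YAP1, WWTR1, TEAD2, TEAD3, CCN2, AMOTL2 and LATS2) had 10 promoters, and 4 of these, those of YAP1, CCN2, AMOTL2 and LATS2, held it. None of the 10 held TGANTCA, which 7.71% of all promoters did. A WWTR1 promoter held the FOXA letters TGTTTAC and the GATA letters AGATAA, which 3.42% and 10.3% of all promoters held. Within 150 bp of the summit, 1 of the 24 regions held GGAATG, against 10.2% of all regions, and 1 held TGANTCA, against 3.68%. These were the AMOTL2 and TEAD3 regions that were called only in DMSO. No member region held the FOXA or GATA letters, which 1.18% and 2.38% of all regions held. A match is a match of letters and says nothing of binding.

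To compare how much chromatin around each gene was acetylated, the length under peaks in each window was measured (the covered length). It was lower in both I-BET151 libraries than in both DMSO libraries at 5 of the 10 genes, TEAD3, TEAD4, CCN1, CCN2 and AMOTL2, and higher at 2, YAP1 and TEAD2. Among the 15184 protein-coding genes with a peak in their window, 44.4% were lower in this way and 12.5% higher, so the share of members that were lower was close to that of all genes. The median difference over the members was -253.5 bp, beside -94.0 bp over all genes with peaks. With 2 libraries a group, an exact permutation test (two-sided, over 6 assignments) cannot give a p below 0.33, which is its value wherever the groups did not overlap.

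**Figure D1:**
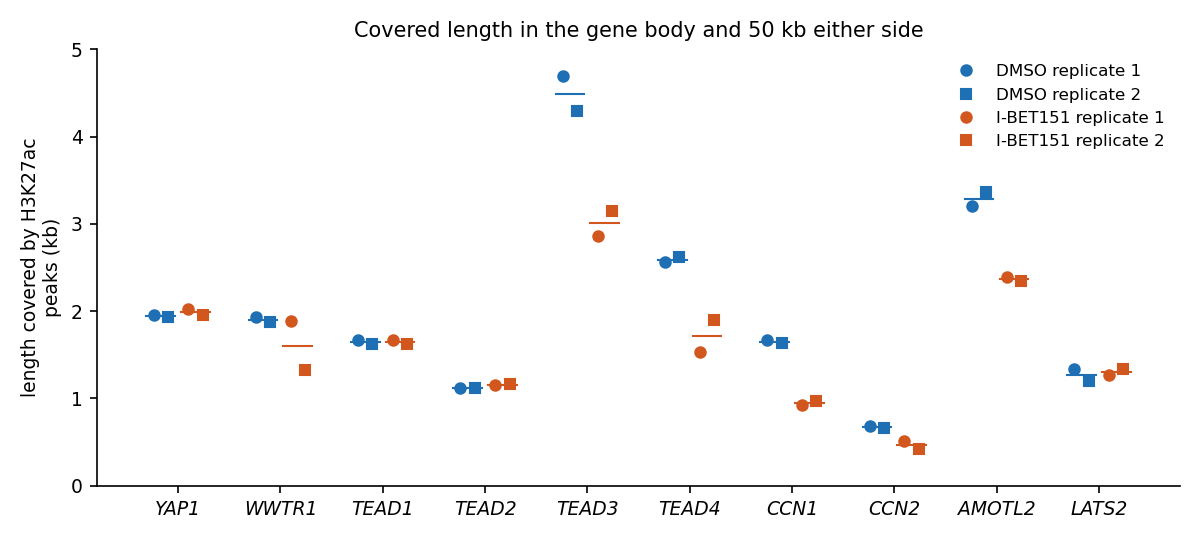
Length under H3K27ac peaks (kb) in the gene body and 50 kb either side, for the 10 genes. Points are libraries (circles replicate 1, squares replicate 2), blue for DMSO and orange for I-BET151, and horizontal lines are means of 2. The groups separate downward at TEAD3, TEAD4, CCN1, CCN2 and AMOTL2, and at YAP1 and TEAD2 they separate upward by far less.

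Both coactivator genes had a peak at their start in every library. YAP1 had 1 peak in each library, and its covered length was 1955 and 1932 bp in DMSO against 2025 and 1960 in I-BET151. The groups did not overlap, but the means, 1.94 ± 0.016 and 1.99 ± 0.046 kb (SD, n = 2), differed by 2.52%, and 21.1% of all genes with peaks had a difference as high or higher. WWTR1 had 1928 and 1878 bp in DMSO against 1885 and 1326 in I-BET151, where I-BET151 replicate 2 alone was low and the groups overlapped. That library lacked the peak at the start of the neighbouring gene COMMD2 (chr3:149752180-149752547), which the other 3 libraries had. The COMMD2 peak spanned 267 bp in I-BET151 replicate 1. I-BET151 replicate 2 was also shorter at the WWTR1 start itself, with 947 and 379 bp under peaks against 1189 and 429 bp in I-BET151 replicate 1.

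The 4 TEAD genes, whose products bind DNA for YAP and TAZ, differed among themselves. TEAD1 had 1666 and 1624 bp in DMSO against 1666 and 1620 in I-BET151, with overlapping groups. TEAD2 had 1114 and 1115 bp in DMSO against 1153 and 1163 in I-BET151, 3.90% more. TEAD3 had the most covered length of the 10 genes in DMSO, 4695 and 4290 bp, and 2858 and 3151 bp in I-BET151. Its means of 4.49 ± 0.29 and 3.00 ± 0.21 kb (SD, n = 2) differed by -1.49 kb, a difference that 5.03% of all genes with peaks reached or passed. TEAD4 had 2557 and 2619 bp in DMSO against 1533 and 1895 bp in I-BET151, or 2.59 ± 0.044 and 1.71 ± 0.26 kb, 33.8% less.

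The target genes encode secreted matricellular proteins that are widely read as a measure of YAP and TAZ activity. CCN1 had 1666 and 1632 bp in DMSO against 926 and 975 in I-BET151, and its means of 1.65 ± 0.024 and 0.951 ± 0.035 kb (SD, n = 2) differed by -42.4%, more than at any other of the 10 genes. CCN2 had a single narrow peak of 689 and 660 bp in DMSO, against 510 and 420 bp in I-BET151, or 0.674 ± 0.021 and 0.465 ± 0.064 kb. Differences as low or lower were found at 14.6% of all genes with peaks for CCN1 and at 37.2% for CCN2.

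The negative regulators differed from each other. AMOTL2, an angiomotin family protein that holds YAP in the cytoplasm, had 3204 and 3368 bp in DMSO against 2387 and 2347 in I-BET151. Its means were 3.29 ± 0.12 and 2.37 ± 0.028 kb (SD, n = 2), and it had 5 peaks in each DMSO library and 3 in each I-BET151 library. LATS2, a kinase of YAP and TAZ, had 1332 and 1197 bp in DMSO against 1268 and 1332 in I-BET151, with overlapping groups.

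To see where in each window the difference arose, peaks of any library that touched by 1 bp or more were joined into one region. Of the 24 regions, 16 were called in all 4 libraries and 2 (8.33%) were lost, that is, present in the DMSO lists of both replicates but absent from both I-BET151 lists, against 8.60% of all regions. None was gained, against 2.81% of all regions. Each of the 10 genes had a region at its own start that was called in all 4 libraries. A region counted as at a start when its summit lay within 3 kb of that start, with a member's own start taken first. By position, 12 regions lay at a start of a member, 5 at the start of another gene, 5 in a gene body away from starts and 2 in the flanks.

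The largest share of the TEAD3 difference came from a lost intronic region at chr6:35485578-35486398, 10910 bp from the nearest start of the gene. It spanned 730 and 782 bp in the DMSO libraries, with 12.6 and 13.5 RPM at the summit (reads per 1000000 ChIP reads) and deposited fold enrichments of 3.01 and 4.38. It made up -756.0 bp of the difference in mean covered length, and the TEAD3 start region made up -245.5 bp. The starts of RPL10A and FANCE, which are other genes in the window, made up -173.0 and -213.5 bp. With the same number of top-ranked peaks in every list (12312), this region no longer counted as lost, and the TEAD3 difference was -0.759 kb. Its peak in DMSO replicate 1, at 93.2% down that list by p-value, fell outside the cut (77.9% in DMSO replicate 2). The sequence at the summit of this lost region held the AP-1 letters TGAGTCA, as shown above.

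The second lost region lay in the window of AMOTL2, at chr3:134313446-134313844, in the downstream flank and 58270 bp from the nearest AMOTL2 start. It spanned 399 and 292 bp in DMSO, with 15.5 and 14.3 RPM at the summit and fold enrichments of 5.33 and 3.27. It made up -345.5 bp of the AMOTL2 difference of -919.0 bp in mean covered length. With 12312 top-ranked peaks in every list this region no longer counted as lost either, and the AMOTL2 difference was -0.296 kb. Its peak in DMSO replicate 2, at 87.8% down that list by p-value, fell outside the cut (68.2% in DMSO replicate 1). This region held both TEAD matches shown above, 1 on each strand. The peak of DMSO replicate 2 began only at chr3:134313518, the last base of the second match. Both matches thus lay wholly under the peak of DMSO replicate 1 alone. The rest of the AMOTL2 window held regions whose calls differed between the replicates of a group. A region called in DMSO replicate 2 only, also near a start of the gene (chr3:134370755-134371392), made up -319.0 bp. A region called in all but I-BET151 replicate 2 made up -219.5 bp, and another called in DMSO replicate 1 only -157.5 bp. In the other direction, a region called in I-BET151 replicate 2 only made up 142.5 bp. More of the difference thus lay in these regions than in the lost region. The main AMOTL2 start region (chr3:134373333-134374853), in contrast, spanned 1475 and 1506 bp in DMSO against 1484 and 1438 in I-BET151. It made up -29.5 bp.

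At CCN2 the shorter coverage lay in the start region, and at CCN1 and TEAD4 in the start region and in a second one at the start of another gene. The CCN1 start region (chr1:85580698-85581546, summit in a UTR exon 182 bp from the start) spanned 794 and 780 bp in DMSO against 538 and 272 in I-BET151. A second region 3990 bp upstream of CCN1 spanned 872 and 852 bp in DMSO against 388 and 703 in I-BET151. Its summit lay 1592 bp from the start of DDAH1, which the region did not reach. The summit of the CCN1 start region lay 2580 bp from that same DDAH1 start. The upstream region made up -316.5 bp of the difference and the CCN1 start region -382.0 bp. The CCN2 region (chr6:131950702-131951400, summit in a coding exon 245 bp from the start) reached only 28 bp upstream of the start, so the 3 TEAD matches printed for CCN2 lay outside it. The TEAD4 start region spanned 1536 and 1546 bp in DMSO against 886 and 1241 in I-BET151, and in I-BET151 replicate 1 it was split into 2 peaks. It made up -477.5 bp of the TEAD4 difference, and the region at the start of TSPAN9, which spanned 1021 and 1073 bp in DMSO and only 647 and 654 bp in I-BET151, made up -396.5 bp. Over the 16 regions called in all 4 libraries, 8 were narrower in both I-BET151 libraries and 2 wider, against 33.3% and 16.0% of all such regions.

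**Figure D2:**
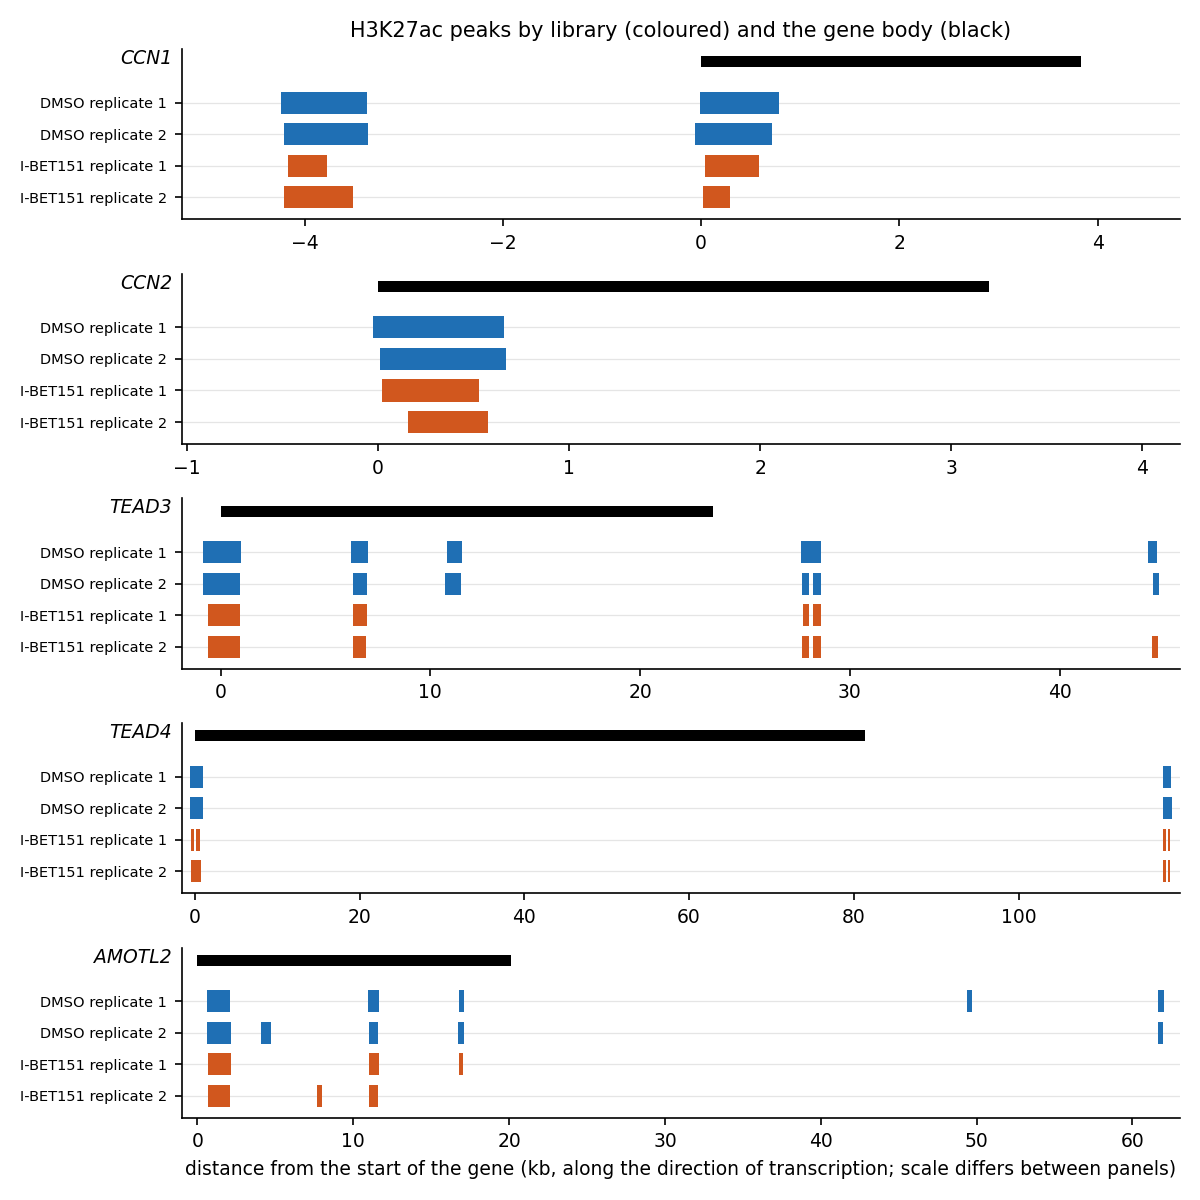
H3K27ac peaks around the 5 genes with less covered length, by library (blue for DMSO, orange for I-BET151). The x axis is the distance from the start of the gene in kb along the direction of transcription, with its own scale in each panel, and the black bar is the gene body. The CCN1, CCN2 and TEAD4 peaks at the start are shorter in I-BET151, and TEAD3 and AMOTL2 each have a peak away from the start that only the DMSO libraries have.

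To compare the height of acetylation, the number of ChIP reads at each summit was recovered from the fold enrichment and p-value and divided by the ChIP reads of the library (RPM, the summit level), using the most significant peak of each library in a region. Of the 16 regions called in all 4 libraries, 10 (62.5%) had a lower level in both I-BET151 libraries and 3 (18.8%) a higher one, against 31.0% and 29.9% of all regions called in all 4. At the 11 of these regions that lay at a member's own start, 6 were lower and 3 higher. The other lower regions were those at the starts of RPL10A, TSPAN9 and DDAH1 and one in a TEAD3 intron. The median log2 difference over the 16 regions was -0.24, and that over all regions called in all 4 libraries was 0.00. Regions of 1 gene share their window, so they are not separate replicates. By the deposited fold enrichment, which divides by the local input, 4 of the 16 were lower and 2 higher, against 16.4% and 25.4% of all such regions. The solved local input was far above the genome-wide input level at peaks in general, not only at these genes. Its median over all peaks was 10.0 to 13.1 per library, against genome-wide levels of 0.246 to 0.306. The reason was not tested, and it limits every contrast of fold and RPM given here.

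**Figure D3:**
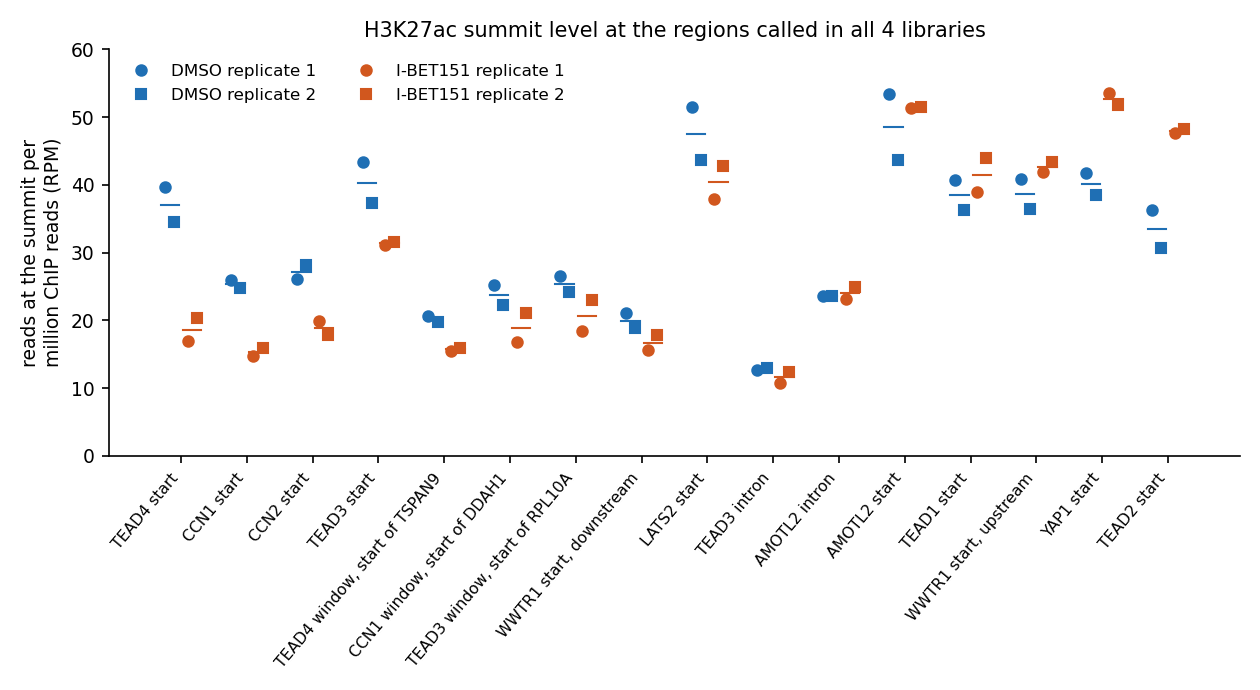
Summit level (RPM) at the 16 regions that were called in all 4 libraries, ordered by the log2 difference. Points are libraries (circles replicate 1, squares replicate 2; blue for DMSO, orange for I-BET151) and horizontal lines are means of 2. The levels at the TEAD4, CCN1 and CCN2 starts are lower in I-BET151 without overlap, and those at YAP1 and TEAD2 are higher without overlap.

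TEAD4 had the largest difference. Its start region had 39.6 and 34.5 RPM in DMSO and 16.9 and 20.3 in I-BET151. In I-BET151 replicate 1 the region had a pair of summits, and 16.9 is that of the more significant peak. With the taller one, at 18.0, the mean in DMSO was 1.93-fold that in I-BET151 and TEAD4 (19.2) passed CCN2 (18.9) in the order of levels. Both I-BET151 libraries were far below both DMSO libraries, and with the more significant summit the mean of 37.0 ± 3.6 in DMSO was 2.00-fold that of 18.6 ± 2.4 in I-BET151 (SD, n = 2). The log2 difference of -1.0 was reached or passed by 0.660% of all regions called in all 4 libraries. The 95% Poisson intervals, which cover counting error only, ran from 30.9 to 44.2 over both DMSO libraries and from 14.1 to 23.6 over both I-BET151 libraries. The deposited fold was also lower, 5.78 and 11.0 in DMSO and 4.36 and 2.90 in I-BET151. The local input was uneven and overlapped between the groups, at 65.3 and 30.8 times the genome-wide level in DMSO and 38.5 and 73.2 times in I-BET151. The highest fold thus had the lowest input and the lowest fold the highest, and the part of the input was not tested. In the same window, the region at the start of TSPAN9 had 20.6 and 19.7 RPM in DMSO and 15.5 and 15.9 in I-BET151.

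CCN1 had 25.9 and 24.7 RPM at its start in DMSO and 14.7 and 15.9 in I-BET151. The groups stood well apart, at 25.3 ± 0.83 and 15.3 ± 0.87 (SD, n = 2), a 1.65-fold lower level in I-BET151. A log2 difference of -0.72 or lower was found at 2.22% of all regions called in all 4 libraries. The fold enrichment of CCN1 did not separate the groups, at 3.98 and 5.18 in DMSO and 4.15 and 3.79 in I-BET151. The local input at CCN1 moved with the reads, at 62.0 and 49.1 times the genome-wide input level in DMSO and 35.0 and 42.5 times in I-BET151, and its part in the result was not tested.

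CCN2 had 26.1 and 28.2 RPM in DMSO and 19.9 and 17.9 in I-BET151. Both I-BET151 libraries were lower, and the means of 27.1 ± 1.4 and 18.9 ± 1.4 (SD, n = 2) differed 1.44-fold. A log2 difference of -0.52 or lower was found at 5.53% of all regions called in all 4 libraries. Here the fold enrichment was lower too, 4.73 and 6.54 in DMSO and 3.23 and 3.69 in I-BET151, while the local input levels of the groups overlapped. The Poisson intervals of CCN2 were less clear than those of TEAD4: the lowest DMSO bound was 22.7 and the highest I-BET151 bound 23.2.

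YAP1 and TEAD2 had higher levels in I-BET151. The YAP1 start region (chr11:102109800-102111824, summit 309 bp upstream of the start) had 41.8 and 38.5 RPM in DMSO and 53.6 and 51.8 in I-BET151. Its means of 40.2 ± 2.3 and 52.7 ± 1.3 (SD, n = 2) differed 1.31-fold, and 7.75% of all regions called in all 4 libraries had a log2 difference of 0.39 or more. The deposited fold at YAP1 had the opposite order, 14.2 and 11.4 in DMSO and 10.9 and 9.93 in I-BET151. The local input was 26.1 and 33.6 times the genome-wide level in DMSO and 49.0 and 52.9 times in I-BET151. The direction at YAP1 thus depended on whether the local input was divided out, and the part of the input was not tested.

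The TEAD2 start region (chr19:49361388-49362550), which also lies over the start of DKKL1, had 36.3 and 30.7 RPM in DMSO and 47.6 and 48.3 in I-BET151. Its means of 33.5 ± 4.0 and 47.9 ± 0.50 (SD, n = 2) differed 1.44-fold, with 4.40% of all regions called in all 4 libraries at or above its log2 difference of 0.52. The local input at TEAD2 was higher in I-BET151 as well, 20.4 and 22.7 times the genome-wide level in DMSO and 36.4 and 31.4 times in I-BET151. The fold enrichment of TEAD2 overlapped between the groups.

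**Figure D4:**
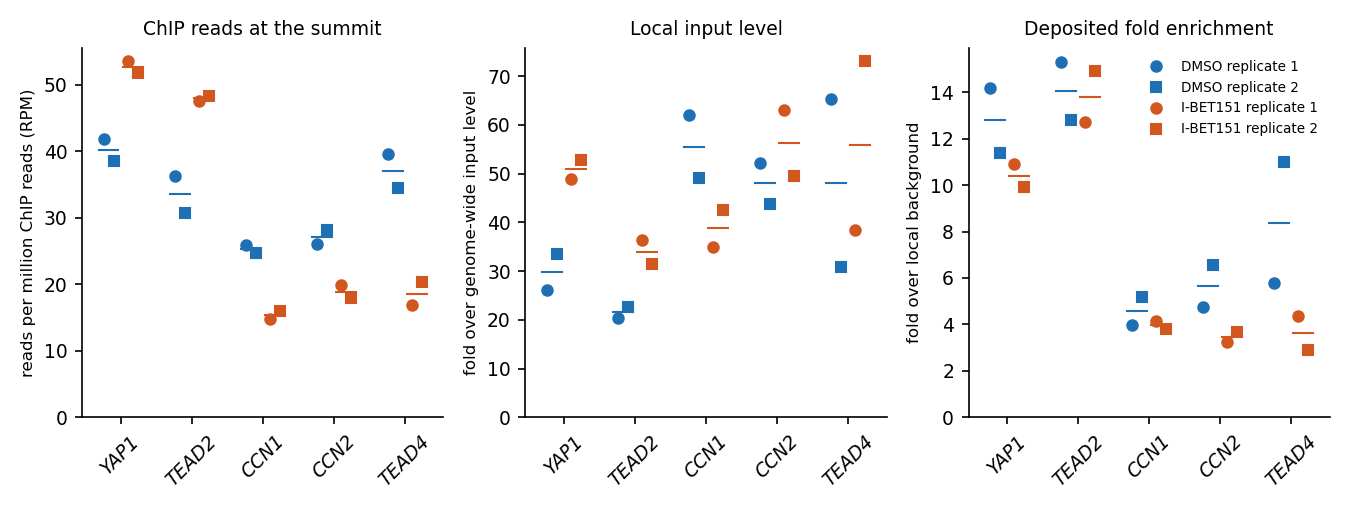
ChIP reads at the summit (RPM), local input level (fold over the genome-wide input level) and deposited fold enrichment over the local background at 5 start regions. Points are libraries (circles replicate 1, squares replicate 2; blue for DMSO, orange for I-BET151) and horizontal lines are means of 2. At YAP1 the reads and the input are higher in I-BET151 and the fold is lower, and at CCN2 and TEAD4 the reads and the fold are both lower.

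The other start regions differed less. TEAD3 (chr6:35496124-35497929) had 43.3 and 37.3 RPM in DMSO and 31.1 and 31.6 in I-BET151, a 1.28-fold lower mean. LATS2 (chr13:21060354-21061718) had 51.5 and 43.6 in DMSO and 37.9 and 42.8 in I-BET151, where the groups did not overlap but the lower DMSO and the higher I-BET151 library lay close together. WWTR1 had 2 start regions that went opposite ways. The main one (chr3:149657538-149658747) had 40.8 and 36.4 in DMSO and 41.9 and 43.3 in I-BET151, and the smaller one downstream, with its summit in a coding exon (chr3:149656826-149657287), had 21.1 and 18.8 in DMSO and 15.6 and 17.8 in I-BET151. TEAD1 (chr11:12673840-12675519) had 40.7 and 36.3 in DMSO and 38.9 and 43.9 in I-BET151, and AMOTL2 (chr3:134373333-134374853) had 53.4 and 43.7 in DMSO and 51.4 and 51.5 in I-BET151. Neither of these last genes separated the groups. Their log2 differences of 0.11 and 0.09 were reached or passed by 33.8% and 36.0% of all regions called in all 4 libraries.

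Away from starts, an intronic region of TEAD3 (chr6:35490064-35490853) had 12.7 and 12.9 RPM in DMSO and 10.8 and 12.4 in I-BET151. The groups were separated by less than the spread of the I-BET151 libraries. An intronic region of AMOTL2 (chr3:134363832-134364511) had 23.6 in both DMSO libraries and 23.1 and 24.9 in I-BET151. The region upstream of CCN1, with its summit 1592 bp from the start of DDAH1, had 25.2 and 22.3 in DMSO and 16.8 and 21.0 in I-BET151.

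The order of the start levels in RPM differed between the groups. In DMSO, AMOTL2 (48.5 RPM) and LATS2 (47.6) were highest and overlapped each other, and TEAD3, YAP1, WWTR1, TEAD1, TEAD4 and TEAD2 followed between 40.3 and 33.5, each overlapping its neighbour. Overlap was judged on the range over both libraries of a group. Within each DMSO library these genes kept the same order, some by very little, except that TEAD3 and YAP1 changed places. CCN2 (27.1) and CCN1 (25.3) were lowest and did not overlap each other or TEAD2. In DMSO replicate 1, however, CCN2 and CCN1 were nearly equal, at 26.1 and 25.9. Their 95% Poisson intervals there, 22.7 to 29.9 and 22.5 to 29.7, overlapped almost fully. In I-BET151, YAP1 (52.7), AMOTL2 (51.5) and TEAD2 (47.9) came first, without overlap between neighbours. WWTR1, TEAD1 and LATS2 followed between 42.6 and 40.3 with overlapping neighbours, then TEAD3 (31.3). CCN2 (18.9) and TEAD4 (18.6) overlapped each other, and CCN1 (15.3) was again lowest. The YAP1 and AMOTL2 means in I-BET151 differed by less than the SD of YAP1. The order was another by the deposited fold, which divides by the local input. AMOTL2, highest by RPM in DMSO, then had 6.28 and 6.37, below YAP1 (14.2 and 11.4), TEAD2 (15.3 and 12.8) and the main WWTR1 region (13.9 and 16.5). In I-BET151, YAP1 (10.9 and 9.93) was below TEAD2 (12.7 and 14.9) and overlapped WWTR1 (20.3 and 9.70).

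**Figure D5:**
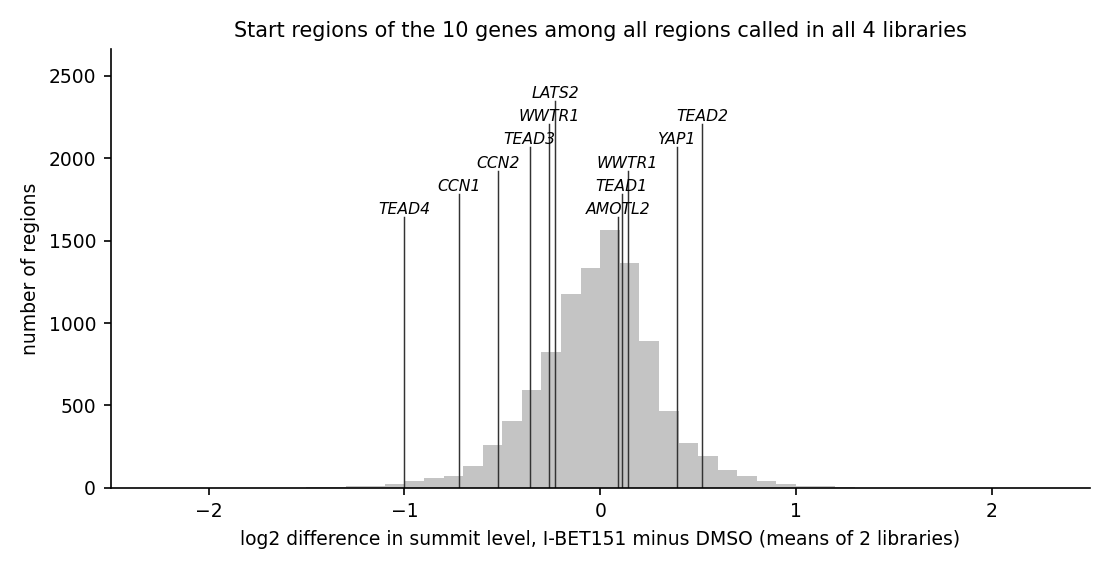
Log2 difference in summit level, I-BET151 minus DMSO (means of 2 libraries), for all regions called in all 4 libraries (grey histogram, number of regions) and for the start regions of the 10 genes (vertical lines, of differing height for legibility). WWTR1 has 2 start regions. TEAD4 at -1.0 and CCN1 at -0.72 lie in the lower tail and TEAD2 at 0.52 in the upper one, while AMOTL2, TEAD1 and the main WWTR1 region lie near the centre.

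To place the 10 genes in their pathway, 49 further genes were examined, of which 45 had a peak in the window. Of these 45, 18 (40.0%) had lower covered length in I-BET151 and 4 (8.89%) higher, shares close to the 44.4% and 12.5% of all genes, and their median difference was -56.0 bp. By role, 6 of 18 upstream components were lower and 1 higher, 5 of 9 partners of YAP, TAZ or TEAD were lower and 0 higher, and 7 of 18 target genes were lower and 3 higher. FAT4, VGLL2, FOXF2 and RBMS3 had no peak in any library.

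The largest decreases in covered length in the wider list were at AXL, RASSF1, DOCK5 and VGLL4. AXL, a receptor tyrosine kinase gene, had 3014 and 3391 bp in DMSO against 2023 and 1765 in I-BET151. RASSF1, a scaffold of the upstream kinases, had 5845 and 6343 bp in DMSO against 5058 and 4513 in I-BET151. DOCK5, a target gene, had 2434 and 2468 bp in DMSO against 1265 and 1180 in I-BET151. VGLL4, a TEAD cofactor that competes with YAP, had 2541 and 2373 bp in DMSO against 1597 and 1300 in I-BET151. VGLL3, another TEAD cofactor that was picked out after its values were seen, had 651 and 667 bp in DMSO and no peak in either I-BET151 library.

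In the other direction, TNS3, which encodes a focal adhesion protein, had 4224 and 4027 bp in DMSO against 7001 and 5599 in I-BET151. FJX1 followed at 2119 and 2503 bp in DMSO against 2679 and 2706 in I-BET151. ANKRD1, a commonly used YAP target, had no peak in DMSO replicate 1, 254 bp in DMSO replicate 2 and 346 and 260 bp in I-BET151, with the closest libraries of the groups nearly equal. MOB1B, a cofactor of the LATS kinases, differed by 0.0510 kb.

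The genes most like CCN1 in covered length over the 4 libraries, among those outside the 10 windows, were PTK2B, XIRP1 and MAPK8IP1, at Euclidean distances of 92.3, 134 and 138 bp. For CCN2 they were RANBP2, MAP1S and ATG3, at 94.2, 98.0 and 98.4 bp. ATG3 had the same values as CCDC80, a target gene of the wider list, 701 and 583 bp in DMSO against 491 and 477 in I-BET151. Both windows may hold the same peaks, so these genes are not separate examples. PTK2B, the closest to CCN1, had 1604 and 1620 bp in DMSO against 920 and 1042 in I-BET151.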

How the data were processed

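H3K27ac ChIP-seq was analysed in 4 libraries (2 DMSO, 2 I-BET151), grouped by title. Per the study's methods and submitters' processing notes, paired-end reads were aligned by the authors with Bowtie2 2.2.5 (hg38). They filtered reads and removed duplicates, and called peaks per library with MACS2 2.1.2. The deposited lists give each peak's interval and summit, a score (not used), the fold enrichment (a ratio to local background), and the −log10 p-value and −log10 q-value. The lowest deposited −log10 q was 1.30 to 1.36, so weaker acetylation is not listed, more so in shallower libraries.

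From the fold (pseudocount 1) and the Poisson p, the depth of each library, its local input levels and whole ChIP reads under each summit were solved (Python 3.11.15, scipy 1.17.1) for 98.4 to 99.0% of peaks, and the solver was tested on simulated data. Reads were extended by 247 to 272 bp, longest in DMSO replicate 1, which raises its pileup. A MACS2 genome size of 2.7e+09 was assumed. The median-ratio scaling factors of the 4 libraries were 0.955 to 1.050. Median summit reads were 176 to 220 per library.

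Genes were from GENCODE release 44 (coordinates 1-based). Two-sided exact permutation tests over 6 assignments of libraries were used for single values. Members and lists were chosen with earlier results of these data known. Named regions were lost or gained ones, those at member starts, and the 5 largest level differences each way; from the wider list, the 4 largest non-overlapping differences each way; and the 3 genes closest to CCN1 and CCN2. Some items are not reported here. Alternatives covered window, threshold, peak number, merging, scaling, choice of summit (added after seeing the data), left-out libraries and the replicate block.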

Additional observations from a re-analysis of the deposited data

How the results depend on the processing

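Of 173 values recomputed under the alternatives for 21 results, 6 reversed and 19 moved by more than the spread between replicates or, for counts, by over 1.5 times. The covered length difference at TEAD3 was -0.759 kb and at AMOTL2 -0.296 kb with equal numbers of top-ranked peaks, and at TEAD4 -0.477 kb and at AMOTL2 -0.416 kb with 10 kb. All 3 genes stayed lower without overlap under every alternative run. At WWTR1 the difference was -0.0915 kb with 10 kb, and with 1 library left out it ran from -0.577 (without I-BET151 replicate 1) to -0.0180 kb (without I-BET151 replicate 2). With 100 kb either side the covered length difference was 0.896 kb at TEAD1, -0.493 kb at TEAD2 and -0.115 kb at LATS2, where the wider window takes in further peaks. With 1 library left out it ran from -0.0250 to 0.0210 kb at TEAD1 (0.0190 without DMSO replicate 1, 0.0210 without I-BET151 replicate 2) and from -0.0320 (without DMSO replicate 2) to 0.103 kb at LATS2. The median difference over the 10 genes (-0.254 kb) was -0.150 kb with 10 kb, -0.378 kb with 100 kb and -0.320 kb at −log10 q of at least 5. With 1 library left out it ran from -0.416 kb (without I-BET151 replicate 1) to -0.0912 kb (without I-BET151 replicate 2).

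Lost regions were 1 with 10 kb (that of TEAD3) and 1 with equal numbers of top-ranked peaks, which was the COMMD2 region in the WWTR1 window, while neither the TEAD3 nor the AMOTL2 region was lost under that setting. Gained regions were 1 with 100 kb. With 1 library left out, lost regions were 3 to 4 and gained 0 to 1 (4 and 1 without I-BET151 replicate 1). Regions with a lower summit level were 10 to 12 and with a higher one 3 to 5 with 1 library left out (5 without DMSO replicate 1 and without I-BET151 replicate 1). By fold enrichment 4 were lower and 2 higher, and by median-ratio scaling 9 and 4. With the tallest summit of each region (chosen after seeing the data), 10 were lower and 3 higher. Narrower regions were 10 to 12 and wider ones 2 to 4 (4 without DMSO replicate 1) with 1 library left out, where 3 libraries separate more easily than 4, and 8 and 2 with merging within 500 bp. The cause of these shifts was otherwise not tested. The replicate numbers were not shown to pair the libraries: differences between replicates 1 and 2 correlated at 0.0118 for calls and 0.0710 for log2 level between the groups. With a replicate block the median difference was -0.254 kb, 6 of the 10 genes were lower and 9 regions narrower. No p below 0.33 was possible, and regions below the peak threshold could not be measured.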
